A study of Homo sapiens with 6 samples.

Results

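Peaks of the G-quadruplex antibody BG4 that lay at the ends of noncoding genes, and at no end of a protein-coding gene, numbered 290 in untreated U2OS cells and 180 in cells treated with 1,6-hexanediol, 470 of the 5470 peaks compared. A peak was taken when any of its bases lay within 1 kb of the start or end of a gene that RefSeq does not list as protein-coding, and none lay within 1 kb of either end of a protein-coding gene. The 2 lists together covered 356 separate loci. U2OS is a human osteosarcoma line, and the untreated group is called Ctrl. The treated group, HD, received 1,6-hexanediol, an alcohol widely used to dissolve phase-separated condensates. Each condition had 2 BG4 ChIP libraries and 1 input library. Since 1 peak list per condition was analysed, the values carry no error over libraries, and Ctrl and HD are compared as lists, not as replicated groups. Each of the 2269 names in the HD list bears the replicate number 1, so that list may rest on a single library. How much hexanediol was used, and for how long, was not given in the sources used here. Intervals after shares and fragment numbers are exact 95% binomial or Poisson intervals and cover counting error only.

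G-quadruplexes (G4s) are 4-stranded stacks that form where several runs of guanines lie close together on 1 DNA strand, and many of them lie just upstream of active genes. Noncoding genes include long noncoding RNAs (lncRNAs), which RNA polymerase II transcribes from promoters much like those of mRNAs. They also include the short tRNA and 5S rRNA genes of RNA polymerase III, the small RNAs of splicing and rRNA modification, and microRNA (miRNA) hairpins. Pseudogenes are copies of genes that have lost their coding function. Some were copied with their promoter, and others were inserted from a processed mRNA.

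The promoters below, each from 250 bases before to 50 after the gene's start, are examples of motif-holding sequence under lncRNA peaks, since most promoters under such peaks held no match. They belong to lncRNAs, named for strong peaks or as widely studied genes, whose promoter a peak overlapped and that held the G4 motif on either strand. The motif is 4 runs of GGG or longer with loops of 1 to 7 bases, and a match on the other strand reads as 4 runs of CCC. Sequences are from RefSeq, build GRCh38.p14, written 5′ to 3′ on the gene's strand, with motif matches in capitals. RENO1 (chr17:81345946-81346245, minus strand) and LOC105372716 (chr20:62794232-62794531, minus strand) were in both lists, as was MALAT1 (chr11:65497488-65497787, plus strand), a lncRNA of nuclear speckles. UBE2D3-AS1 (chr4:102827805-102828104, plus strand) and DINOL (chr6:36678510-36678809, minus strand), a lncRNA induced by DNA damage, were in the Ctrl list alone. Their peak summits lay within the coding genes UBE2D3 and CDKN1A. LOC105377073 (chr3:47475695-47475994, plus strand) was in the HD list alone.
RENO1: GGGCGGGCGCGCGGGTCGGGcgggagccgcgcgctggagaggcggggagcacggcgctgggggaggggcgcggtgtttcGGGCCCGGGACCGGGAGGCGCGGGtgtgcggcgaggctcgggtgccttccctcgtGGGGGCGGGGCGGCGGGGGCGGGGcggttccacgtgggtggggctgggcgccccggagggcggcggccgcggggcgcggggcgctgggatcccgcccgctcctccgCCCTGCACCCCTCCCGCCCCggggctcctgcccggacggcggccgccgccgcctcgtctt
LOC105372716: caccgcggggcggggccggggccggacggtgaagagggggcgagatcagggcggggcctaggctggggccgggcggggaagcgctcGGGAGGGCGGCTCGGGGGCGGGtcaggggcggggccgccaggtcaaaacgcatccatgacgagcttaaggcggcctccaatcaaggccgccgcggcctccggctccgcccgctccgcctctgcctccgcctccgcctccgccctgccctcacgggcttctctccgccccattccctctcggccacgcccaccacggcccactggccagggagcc
MALAT1: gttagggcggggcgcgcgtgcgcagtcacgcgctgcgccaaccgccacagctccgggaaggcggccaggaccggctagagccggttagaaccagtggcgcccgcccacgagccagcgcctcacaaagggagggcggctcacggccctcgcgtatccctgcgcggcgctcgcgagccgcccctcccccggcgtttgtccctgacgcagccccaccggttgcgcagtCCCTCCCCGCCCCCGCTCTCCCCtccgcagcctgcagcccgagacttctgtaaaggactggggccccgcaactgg
UBE2D3-AS1: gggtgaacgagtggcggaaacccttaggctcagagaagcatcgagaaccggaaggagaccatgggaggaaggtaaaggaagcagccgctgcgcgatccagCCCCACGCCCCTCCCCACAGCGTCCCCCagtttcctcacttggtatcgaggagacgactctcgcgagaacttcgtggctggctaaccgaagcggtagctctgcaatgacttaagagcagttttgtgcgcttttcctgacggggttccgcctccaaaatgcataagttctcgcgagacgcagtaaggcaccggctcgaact
DINOL: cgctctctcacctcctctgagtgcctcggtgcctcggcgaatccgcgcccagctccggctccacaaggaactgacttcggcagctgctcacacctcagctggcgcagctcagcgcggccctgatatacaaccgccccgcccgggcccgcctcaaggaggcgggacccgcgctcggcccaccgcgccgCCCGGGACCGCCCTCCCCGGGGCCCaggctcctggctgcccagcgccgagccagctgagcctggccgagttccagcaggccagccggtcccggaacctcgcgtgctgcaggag
LOC105377073: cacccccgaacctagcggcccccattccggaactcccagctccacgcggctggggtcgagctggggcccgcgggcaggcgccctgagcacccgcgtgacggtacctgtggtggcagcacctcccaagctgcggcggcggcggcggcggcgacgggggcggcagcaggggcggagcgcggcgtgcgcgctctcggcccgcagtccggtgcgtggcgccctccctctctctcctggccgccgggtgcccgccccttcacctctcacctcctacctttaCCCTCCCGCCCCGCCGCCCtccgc

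RENO1 held 4 matches, on both strands, and a GC content of 84.7%. The single match of LOC105372716 lay on the gene's strand, and those of MALAT1, UBE2D3-AS1, DINOL and LOC105377073 lay on the other strand. UBE2D3-AS1 had the lowest GC content of the 6, 58.0%. Of the 20 named lncRNAs and the marked members of the gene lists, 16 had a promoter in the RefSeq table under a peak, and 8 of these held the motif, the 6 shown and those of CHASERR and LINC00963. Over all members, peaks of either list overlapped 120 lncRNA promoters of 109 genes, and 38 of them (31.7%, 23.5 to 40.8) held the motif. Among all 10376 lncRNA promoters more than 1 kb from coding gene ends, 11.3% held it. The GC content differed as well, with a median of 66.2% under the peaks and 47.0% over all of these promoters. In none of 3 ranges of GC content was the motif more frequent under peaks. From 50 to 60% GC it was in 2 of 20 promoters under a peak, against 13.0% of 2470. At a GC content from 60 to 70% it was in 10 of 52 promoters under a peak (19.2%, 9.63 to 32.5), against 32.8% of 1322. From 70 to 80% it was in 24 of 44 (54.5%, 38.9 to 69.6), against 58.8% of 432. Coding gene promoters under a peak at a coding end held it in 839 of 2244 cases (37.4%), at a median GC content of 68.0%. The motif was in 20 of 46 promoters (43.5%, 28.9 to 58.9) under peaks of both lists, in 16 of 56 (28.6%, 17.3 to 42.2) under a Ctrl peak alone, and in 2 of 18 (11.1%, 1.38 to 34.7) under an HD peak alone. These 3 intervals overlap. The share depends on how the motif is written, since loops of 1 to 12 bases gave 64.2% under the peaks, against 18.7% of the promoters more than 1 kb from coding gene ends. With these longer loops the 2 sets were not compared at like GC content.

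**Figure D1:**
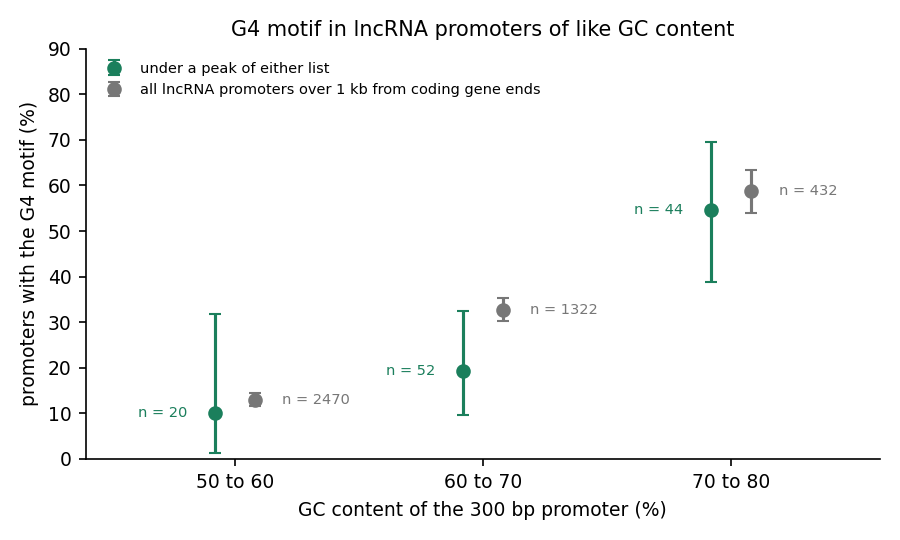
Share of lncRNA promoters with the G4 motif (%, vertical axis) in 3 ranges of GC content (horizontal axis), for promoters under a peak of either list and for all lncRNA promoters more than 1 kb from coding gene ends. Points are shares and bars are exact 95% binomial intervals. The share rises with GC content in both sets, and at 60 to 70% GC it is 19.2% under peaks and 32.8% over all.

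MicroRNA genes supplied 13 Ctrl and 6 HD peaks, and the mature RNAs of some of these genes are shown with the seed (bases 2 to 8) in capitals. miR-3175 is given for the highest HD to Ctrl ratio of any peak in both lists. miR-3648 and miR-10396a are given for the most fragments of any miRNA gene other than MIR12136, which lies among mitochondrial copies, and miR-3180 for a pair of identical hairpins in the Ctrl list alone. No 2 of these seeds are the same.
hsa-miR-3175: cGGGGAGAgaacgcagugacgu
hsa-miR-3648: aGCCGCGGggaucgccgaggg
hsa-miR-10396a-5p: gGCGGGGCucggagccggg
hsa-miR-10396a-3p: gGCCCCGGgcccucgaccggg
hsa-miR-3180-5p: cUUCCAGAcgcuccgccccacgucg
hsa-miR-3180-3p: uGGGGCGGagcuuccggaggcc

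The 11 hairpins nearest to a peak that the RefSeq table holds had a median GC content of 71.4%, against 52.1% over all 1558 hairpins. Values below are the number of ChIP fragments over the summit and the number expected there from input, both recovered from the peak caller's fold and p. The peak over MIR3175, which lies within the coding gene CHD2 (chr15:92904227-92904567), had 22 fragments in Ctrl (5.40 expected) and 56 in HD (6.16 expected). Their ratio to the genome mean of each list, 3.74 fragments per base in Ctrl and 5.51 in HD, was 5.89 in Ctrl and 10.2 in HD. MIR3648-2 (chr21:8986776-8987586) had 223 fragments against 45.3 expected in Ctrl and 358 against 68.6 in HD. The neighbouring peak, assigned to MIR10396A, had 166 against 27.0 in Ctrl and 257 against 64.4 in HD. These 2 genes lie outside the ribosomal region of chromosome 21 that was left out, but the hairpin of the same family MIR10396B lies inside it, so their reads may come from several copies. MIR3180-1 and MIR3180-3 on chromosome 16 each had 21 fragments against 3.74 expected in Ctrl and no HD peak nearer than 159.6 kb. Their 2 hairpins have the same sequence, so the reads of the 2 sites cannot be told apart by sequence there. Further MIR3180 genes lie on chromosome 16. MIR3180-5 had 2 peaks over the lists together, and MIR3180-2 and MIR3180-4 had none. MIR7845, within KLF7, had 23 fragments in Ctrl and 29 in HD.

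Peaks at noncoding gene ends were not shown to differ from those at coding gene ends in how often they were found in the other list. In Ctrl their share was lower, and in HD it was nearly the same. Of the 290 Ctrl peaks, 116 (40.0%, 34.3 to 45.9) overlapped an HD peak by 1 bp or more, against 38.0% of all 3335 Ctrl peaks. Of the 180 HD peaks, 114 (63.3%, 55.8 to 70.4) overlapped a Ctrl peak in the same way, against 59.3% of all 2135 HD peaks. Peaks at coding ends were found again in 46.3% (44.0 to 48.7) of 1811 Ctrl and 63.8% (61.2 to 66.4) of 1318 HD cases. Peaks inside coding genes but away from their ends were found again in 28.6% and 54.4%, and those elsewhere in 23.3% and 45.5%. Nearly all partners were themselves at noncoding ends only, 114 of the 116 Ctrl partners. The Ctrl and HD shares thus count nearly the same overlaps, and the gap between them follows from the numbers of peaks, 290 and 180. The same holds for the shares of lncRNAs and pseudogenes below.

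A logistic fit over all peaks of each list, with fold enrichment and width as covariates, compared these locations (Wald tests and 95% Wald intervals, Benjamini-Hochberg adjustment over 6 terms). The odds ratio of being found again at a coding end against a noncoding end was 1.28 in Ctrl (0.971 to 1.69, n = 3335 peaks, adjusted p = 0.119) and 1.13 in HD (0.797 to 1.59, n = 2135 peaks, adjusted p = 0.501). A difference was thus not shown, and ratios up to 1.69 lie within the intervals. Relative to a noncoding end, the odds in Ctrl were lower inside coding genes (0.616, 0.441 to 0.860, n = 3335 peaks, adjusted p = 0.0132) and elsewhere (0.517, 0.378 to 0.706, adjusted p = 0.000206). In HD the ratios were 0.806 (0.532 to 1.22, n = 2135 peaks, adjusted p = 0.371) inside coding genes and 0.630 (0.428 to 0.926, adjusted p = 0.0374) elsewhere. The Ctrl call inside coding genes was lost with both lists cut to equal length (n = 2135 peaks, adjusted p = 0.345). The HD call elsewhere was lost in the same way (n = 2135 peaks, adjusted p = 0.128), at a −log10 q of at least 3 (adjusted p = 0.161), or at 5 kb or more from coding ends (adjusted p = 0.0755). The comparisons with peaks inside coding genes and elsewhere are terms of the same fit and were taken up as results after the data were seen. Peaks of 1 list are not replicates, so these p-values describe the 2 lists.

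Fold enrichment went along with being found again, as it did over the whole lists. Among the noncoding-end peaks in the highest quintile of fold of their list, 36 of 51 Ctrl peaks (70.6%, 56.2 to 82.5) and 35 of 40 HD peaks (87.5%, 73.2 to 95.8) were found again, against 57.5% and 80.1% of all peaks in that quintile. In the lowest quintile the shares were 32.1% of 84 and 41.3% of 46, against 28.5% and 48.7% of all peaks, so that in HD they lay below it. Peaks whose summit lay inside a coding gene, 86 in Ctrl, were found again in 30.2% (20.8 to 41.1), and the other 204 in 44.1% (37.2 to 51.2). In HD the shares were 63.4% of 41 and 63.3% of 139. Peaks only 1 to 2 kb from a coding end, 26 in Ctrl and 14 in HD, were found again in 34.6% and 57.1%, and those over 20 kb away, 138 and 93, in 39.9% and 58.1%.

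**Figure D2:**
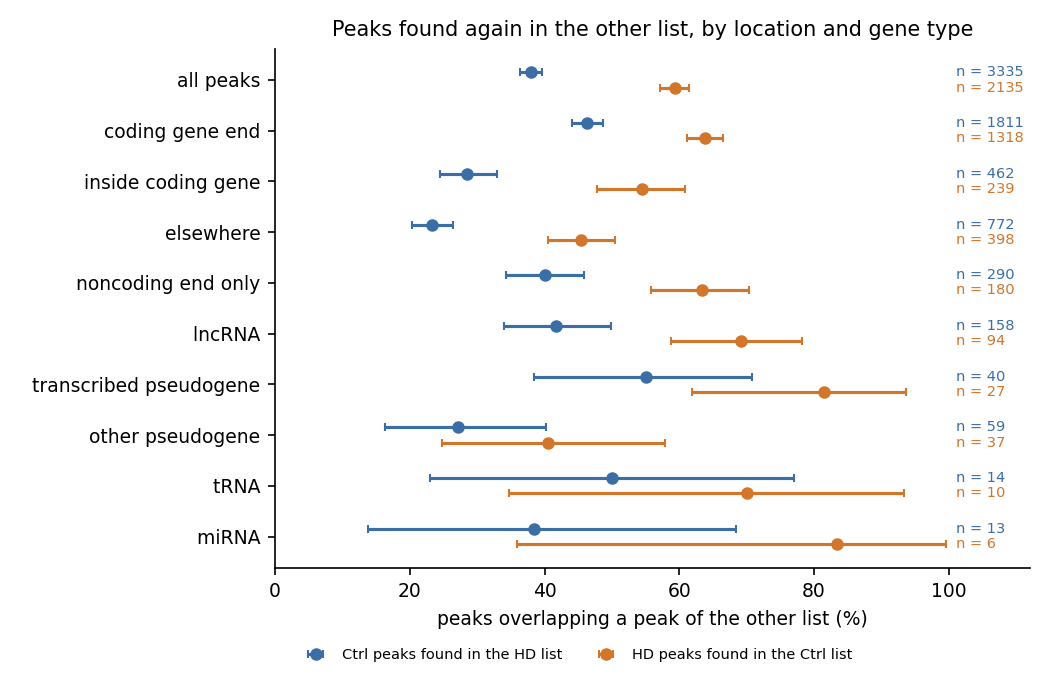
Share of peaks that overlap a peak of the other list (%, horizontal axis) by location class and, for noncoding ends, by gene type (vertical axis). Points are shares and bars are exact 95% binomial intervals, blue for Ctrl and orange for HD. Among the gene types, transcribed pseudogenes were found again in 55.0% and 81.5%, and other pseudogenes in 27.1% and 40.5%.

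Long noncoding RNA genes held the most members, 158 Ctrl and 94 HD peaks. Of these, 66 Ctrl peaks (41.8%, 34.0 to 49.9) and 65 HD peaks (69.1%, 58.8 to 78.3) were found again. Where the RefSeq promoter table gives the gene's strand, the nearer end was nearly always the 5′ end, for 110 of 117 Ctrl peaks (94.0%) and 71 of 77 HD peaks (92.2%). At coding ends the nearer end was the 5′ end for 97.0% of 1523 Ctrl and 97.1% of 1105 HD peaks. Summits lay a median of 123 bp from the lncRNA start in Ctrl and 143 bp in HD, and 74 of 110 and 51 of 71 lay within 250 bp. At coding 5′ ends, 80.1% of Ctrl and 79.6% of HD summits lay within 250 bp. More lncRNA summits lay upstream of the start than downstream, 72 against 38 in Ctrl and 48 against 23 in HD. The few peaks at 3′ ends, 7 in Ctrl and 6 in HD, had summits a median of 412 and 746.5 bp away.

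**Figure D3:**
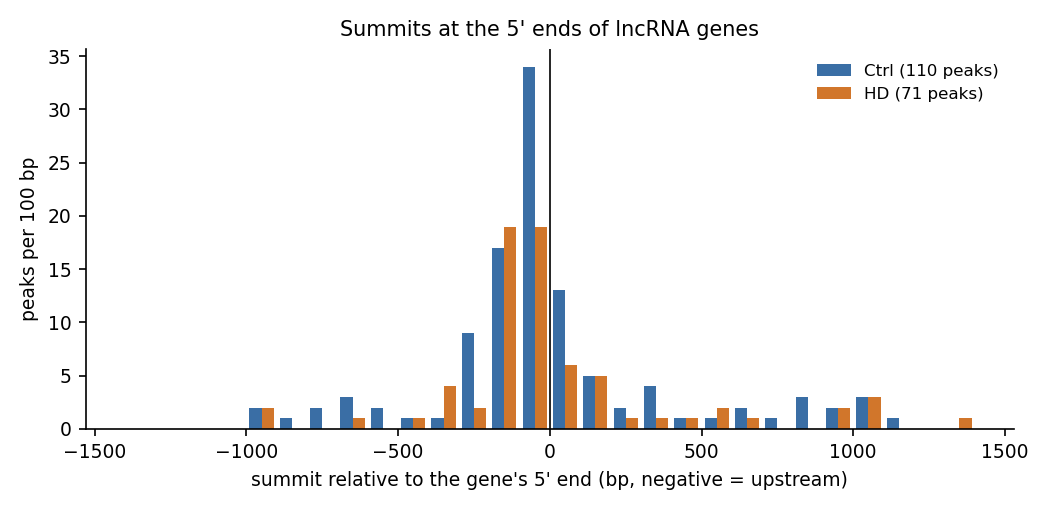
Number of peaks per 100 bp (vertical axis) by the position of the summit relative to the 5′ end of the nearest lncRNA gene (bp, horizontal axis, negative values upstream), for 110 Ctrl and 71 HD peaks. Both lists pile up just upstream of the start, with 72 Ctrl and 48 HD summits upstream.

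The strongest lncRNA peaks in both lists lay beside little-studied genes, several of them copies. LOC112268090 (chr12:8243179-8243962) ranked first, with 54 fragments (40.6 to 70.5) against 4.18 expected in Ctrl and 59 (44.9 to 76.1) against 6.996 in HD. Its peak also reached the pseudogene FAM86FP. RENO1, a lncRNA of early neuronal differentiation, had 35 (24.4 to 48.7) against 5.04 in Ctrl and 43 (31.1 to 57.9) against 5.91 in HD, where a second, weaker peak of 25 fragments lay beside it. LOC105372716 had 36 and 44, and LOC124904724, within the urokinase receptor gene PLAUR, had 35 and 39. LOC124905136 on chromosome 22 had the lowest HD to Ctrl ratio of level of any peak in both lists at noncoding ends, with 49 against 4.90 in Ctrl and 42 against 8.40 in HD, while the genome mean was 1.47 times higher in HD. ANKRD20A4-ANKRD20A20P had 31 and 49 fragments, LOC102723696 had 43 and 57, and LINC02021 had 29 and 39. The fragment intervals of the 2 lists overlapped at LOC112268090, RENO1 and LOC124905136, before any scaling for depth.

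The strongest lncRNA peaks of 1 list alone had about as many fragments as those in both. In the Ctrl list, LOC100996294 (chr17:20532059-20532380) had 36 fragments against 3.74 expected, and the nearest HD peak was 752.1 kb away. The summit lay within that gene, 1035 bp from its nearer end. FAM27C had 44 against 6.47, and VSIG10L-AS1, antisense to VSIG10L, had 32 against 3.74, with an HD peak 14.1 kb away. LOC124902040 had 46 against 8.85, with a summit 928 bp from the gene and within the coding gene PLEC. UBE2D3-AS1 had 29 (19.4 to 41.7) against 3.74 and a weaker peak of 19 nearby, and DINOL had 30 (20.2 to 42.8) against 4.32, its summit 73 bp from the DINOL start. In the HD list, LOC124903662 and ENTPD3-AS1 each had 47 fragments, against 7.56 and 8.26 expected, with summits 27 and 22 bp from the gene's start. KMT2E-AS1 had 38 against 6.05, but its summit lay 1369 bp from the nearer gene end and the peak was 1021 bp from a coding gene end. SMIM2, which RefSeq lists as a lncRNA, had 35 against 5.51, with a summit 1054 bp from its nearer end. LINC02987 had 39 against 7.81, but a Ctrl peak lay only 0.298 kb away without touching it. LOC105377073, within the cholesterol-sensing gene SCAP, had 37 against 7.39. A peak missing from a list is a missing call at that list's threshold, not a level of 0.

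The well-known noncoding RNA genes with such a peak were few in number. Among widely studied lncRNAs their share was nevertheless above that of all lncRNA genes. Of 42 widely studied lncRNAs in the table, 5 (11.9%) had one in Ctrl and 2 (4.76%) in HD, against 0.965% and 0.603% of all 17923 lncRNA genes. NEAT1, the scaffold of paraspeckles, had 32 fragments (21.9 to 45.2) against 5.40 expected in Ctrl, 427 bp from the nearer gene end, and no HD peak within 67.4 kb. CHASERR, a lncRNA that restrains its neighbour CHD2, had 32 (21.9 to 45.2) against 5.56 in Ctrl alone, and the nearest HD peak, 21.4 kb away, was the one over MIR3175. LINC00963 had 26 in Ctrl alone. MALAT1 was in both lists, with 24 (15.4 to 35.7) against 3.93 in Ctrl and 35 (24.4 to 48.7) against 9.52 in HD. MIAT was also in both, with 54 and 64 fragments, although ISCA2P1 was the nearer gene. Of 28 lncRNA hosts of small nucleolar RNAs, SNHG30 (33 and 38 fragments) and DANCR (32 and 47) were marked, both in both lists. None of 19 listed miRNA host lncRNAs was marked in either list. Outside that list, the let-7 host MIRLET7A1HG was marked in both, with 33 and 31 fragments, and MIR4458HG lay in reach of a peak in both, nearest to LINC02226. Many genes of these lists lie near a coding gene end and could not be members. Both ends were more than 1 kb from any coding end for 26 of the 42 studied lncRNAs, 10 of the 28 snoRNA hosts and 15 of the 19 miRNA hosts.

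Pseudogenes were second, with 99 Ctrl and 64 HD peaks, and split into 2 kinds. Transcribed pseudogenes, those RefSeq lists with an RNA, were found again in 22 of 40 Ctrl cases (55.0%, 38.5 to 70.7) and 22 of 27 HD cases (81.5%, 61.9 to 93.7). The others were found again in 16 of 59 (27.1%, 16.4 to 40.3) and 15 of 37 (40.5%, 24.8 to 57.9). The 2 kinds also differed in input. An input expectation more than 2 times the genome mean was seen at 55 of 99 Ctrl and 38 of 64 HD pseudogene peaks. It was seen at 26 of 158 and 8 of 94 lncRNA peaks, at 35.2% of all Ctrl and 32.8% of all HD peaks at noncoding ends, and at 26.8% and 24.5% of all peaks in the lists. At coding ends the share was 14.4% and 12.7%. By kind, it was seen at 12 of 40 transcribed and 43 of 59 other pseudogene peaks in Ctrl, and at 9 of 27 and 29 of 37 in HD. Median fold was 4.51 in Ctrl for transcribed and 2.4 for other pseudogenes, and 4.18 and 2.27 in HD. The part of input in the difference between the 2 kinds was not tested. Among all pseudogene peaks, those of high input were found again in 36.4% of Ctrl and 52.6% of HD cases, and the rest in 40.9% and 65.4%.

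**Figure D4:**
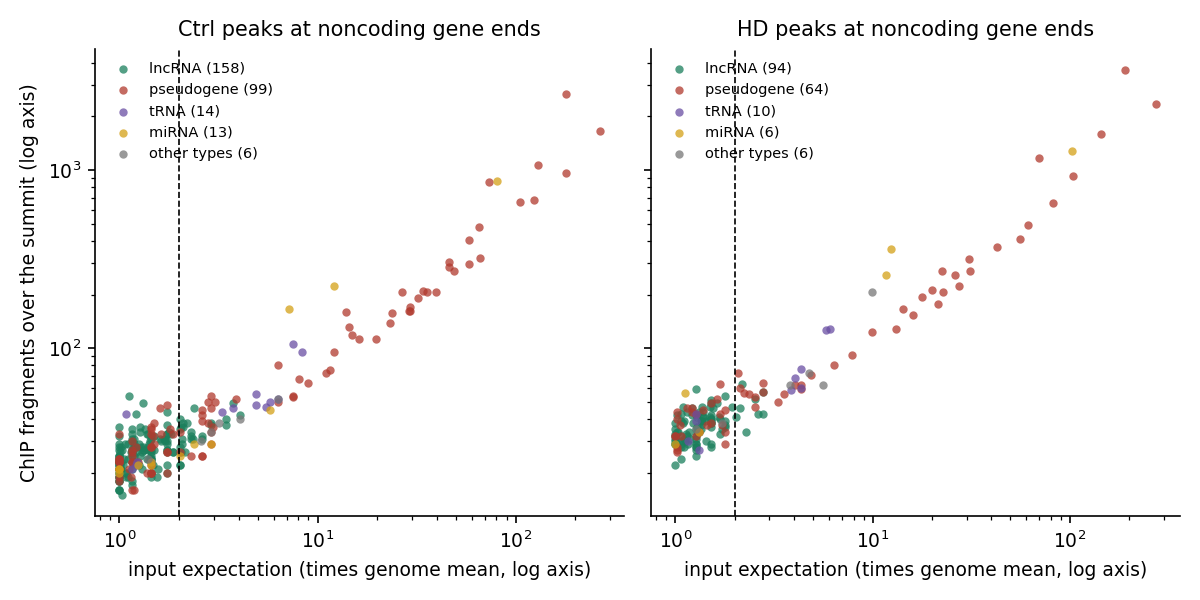
ChIP fragments over the summit (vertical log axis) against the input expectation in multiples of the genome mean (horizontal log axis) for the 290 Ctrl and 180 HD peaks, coloured by gene type. The dashed line is at 2 times the genome mean, with 102 Ctrl and 59 HD peaks to its right. Most lncRNA peaks sit to its left, and the points with the most fragments are pseudogenes far to its right.

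Several gene families recurred among the pseudogenes. They were picked out after their values were seen and carry no test. FAM86 genes encode a methyltransferase family with many pseudogene copies, and 10 of the 12 FAM86 pseudogenes in the table had a peak in Ctrl, against 0.728% of all 16474 pseudogenes in Ctrl and 0.492% in HD. All 10 peaks were found again, against 38.0% of all Ctrl peaks. In HD the same 10 copies were marked. Their fragments ran from 20 to 54 in Ctrl and from 26 to 59 in HD, at an input expectation of 3.74 to 5.40 in Ctrl and 5.51 to 15.4 in HD. FAM86C1P on chromosome 11 (chr11:71786794-71787408) had 33 against 3.74 in Ctrl and 37 against 5.83 in HD, and FAM86C2P had 36 and 43. FAM86EP had 23 and 26, and FAM86GP had 28 and 44. Near FAM86DP, FAM86HP, FAM86FP, FAM86B3P and FAM86JP the nearest gene end belonged to the lncRNAs LINC02018, LINC02021, LOC112268090, FAM85B and LOC102723696. In HD alone, the end nearest to the FAM86KP peak was that of the lncRNA LOC105369250. All of these are counted among the lncRNA peaks. Of 9 FRG1 copies, pseudogenes of a gene named for the facioscapulohumeral dystrophy region, 5 were marked in Ctrl with 21 to 50 fragments, and 1 of them, FRG1HP, was found again, with 50 in Ctrl and 56 in HD. These copies resemble each other in sequence, and the placing of reads that match several copies was not given in the sources used here.

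Most copies of ribosomal protein mRNAs had the opposite pattern, with many fragments, a high input expectation and a low fold. Processed copies of ribosomal protein mRNAs had 18 Ctrl and 11 HD peaks, of 1911 such pseudogenes in the table, and 4 in each list were found again. That number of marked genes is near the share of all pseudogenes, 0.728% in Ctrl and 0.492% in HD, and 4 of 18 and 4 of 11 stand beside 38.0% and 59.3% of all peaks found again. Their input expectation was above 2 times the genome mean at 16 of 18 and 10 of 11, and the median fold was 1.67 and 1.75. RPL13AP5 (chr10:96750378-96750730) had 658 fragments (608.7 to 710.3) against 391.7 expected, in Ctrl alone. RPS16P10 had 213 against 110.5, in HD alone. Copies of other abundant mRNAs, 365 in the table, had 12 Ctrl and 8 HD peaks and were mixed. Their fragments ran from 25 to 964 in Ctrl and from 29 to 922 in HD, and their fold from 1.44 to 3.71 and from 1.61 to 2.72. HSPA8P5, a chaperone copy, had 26 fragments against 6.47 in Ctrl alone. The 1 copy found again in each list was FTLP3, a ferritin light chain copy with 676 against 461.8 in Ctrl and 922 against 570.9 in HD. EEF1A1P5, an elongation factor copy, had 964 against 669.0 in Ctrl alone. The stronger of 2 Ctrl peaks at LDHAP4, a lactate dehydrogenase copy, had 159 against 52.3. Copies of the DUX4 repeat, 46 in the table, had 8 Ctrl and 2 HD peaks, all at high input, and 2 in each list were found again. DUX4L26 had 404 against 216.9 in Ctrl alone. CDC27P11, with 195 against 98.0 in HD alone, lay just past the left-out region of chromosome 21. NCF1C, with 49 against 8.40 in HD alone, had a lower input.

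Among the peaks at noncoding ends, MTATP8P1, a copy of part of the mitochondrial genome on chromosome 1, had the most fragments in both lists, followed by ROCK1P1, a copy of a kinase gene near the tip of chromosome 18. ROCK1P1 had 1664 fragments (1585 to 1746) against 994.8 expected in Ctrl and 2358 (2264 to 2455) against 1503 in HD at the stronger of its 2 peaks. The 4 Ctrl and 4 HD peaks at mitochondrial copies, marking 7 of 465 such genes in each list and 1 of each nearest to MIR12136, were all found again. Of all pseudogenes, 0.728% were marked in Ctrl and 0.492% in HD, and of all peaks 38.0% in Ctrl and 59.3% in HD were found again. At MTATP8P1 (chr1:633914-634152) there were 2682 fragments (2581 to 2785) against 672.2 expected in Ctrl and 3637 (3520 to 3757) against 1048 in HD. The HD pair of numbers at MTATP8P1 did not match the deposited p within 0.01, and the closest was taken. The 2 peaks nearest to MTND2P28 had 861 and 1069 fragments in Ctrl and 1162 and 1581 in HD. Input expectation at the 4 sites was 73.0 to 179.8 times the genome mean in Ctrl and 70.1 to 190.1 times in HD. These copies resemble mitochondrial DNA, and reads of the 2 were not told apart.

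Genes of tRNAs were marked more often than noncoding genes as a whole, mostly through 1 array. A peak lay within 1 kb of 21 of 429 tRNA genes (4.90%, 3.06 to 7.39) in Ctrl and 17 (3.96%, 2.33 to 6.27) in HD, 14 of them in both. Over all 38598 noncoding genes the shares were 0.878% and 0.573%. Clustering set much of this, since 16 of the 21 genes in Ctrl and 13 of the 17 in HD lay in 1 array of 19 tRNA genes on chromosome 1 (chr1:161443304-161470486, 27.2 kb). There 9 Ctrl peaks marked the 16 genes and 6 HD peaks the 13. The intervals take genes as independent and are thus too narrow. The array repeats a unit of aspartate, glutamate and glycine tRNA genes. It had 9 Ctrl peaks with 44 to 105 fragments and 6 HD peaks with 58 to 128, and 5 of each were found again. The families TRD-GTC2, TRE-CTC1, TRG-GCC1 and TRG-TCC2, of 4 genes each there, were each marked at all 4 genes in Ctrl and at 3 in HD. The leucine family TRL-CAG1 was marked at none of 3 and 1 of 3. At TRE-CTC1-3 there were 105 fragments (85.9 to 127) against 28.0 expected in Ctrl and 128 (107 to 152) against 33.6 in HD, and at TRE-CTC1-5 there were 95 and 126. TRE-CTC1-4, with 44, was called in Ctrl alone, but an HD peak at TRD-GTC2-4, with 58, lay 0.547 kb away. TRE-CTC1-2 had 55 in Ctrl alone. Input expectation in the array was 12.2 to 31.3 in Ctrl and 21.2 to 33.6 in HD, above the genome means of 3.74 and 5.51.

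Outside the array, tRNA peaks were single and of low input. TRP-TGG3-3, a proline tRNA gene (chr16:3158697-3159017), had 43 fragments against 4.03 in Ctrl and 43 against 6.996 in HD. TRT-CGT2-1, a threonine tRNA gene, had 23 and 27. TRR-CCG2-1, for arginine, had 23 against 4.59 in Ctrl alone. In HD alone, TRT-AGT1-3 had 39 against 6.996 and TRR-CCG1-3 had 30 against 6.39. The tRNA genes of the array are near-identical copies, so the split of reads among them is uncertain.

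The other small RNA genes gave few peaks, and none at an snRNA, 5S rRNA or 7SL gene was found again. These were 2 Ctrl and 4 HD peaks at snRNA genes, 3 Ctrl peaks at 5S rRNA genes and 1 Ctrl peak at 7SL. Over all peaks, 38.0% of Ctrl and 59.3% of HD were found again. The intervals reach 84.2% (snRNA, Ctrl), 60.2% (snRNA, HD) and 70.8% (5S rRNA, Ctrl), so a difference was not shown. Peaks marked 1.34% of 149 snRNA genes in Ctrl and 2.7% in HD, against 0.878% and 0.573% of all noncoding genes. Between RNU2-1, the gene of the U2 spliceosomal RNA, and its pseudogene RNU2-4P on chromosome 17, the table has 13 snRNA genes of 189 to 192 bp. There were 4 HD peaks and 1 Ctrl peak, at different genes. LOC124904138 (chr17:43251621-43251828) had 207 fragments (180 to 237) against 54.6 in HD, and LOC124904137, LOC124904139 and LOC124904144 had 73, 62 and 62. LOC124904146 had 40 against 15.1 in Ctrl, 6.58 kb from the nearest HD peak. Of the 17 RNA5S genes of 5S rRNA on chromosome 1, RNA5S4, RNA5S6 and RNA5S12 were marked in Ctrl alone, with 30, 52 and 38 fragments against 9.69, 23.7 and 11.9 expected. RN7SL1, which encodes the RNA of the signal recognition particle, had 34 against 10.8 in Ctrl alone and was the only marked member of 14 genes of 7SK, 7SL, RNase P, RNase MRP, vault, Y and telomerase RNAs. RNU7-1, of the RNA that processes histone mRNA ends, had 24 against 5.23 in Ctrl alone. The summit lay 807 bp from RNU7-1, within the coding gene C12orf57. RNU7-1 was the only marked member (4.0%) of 25 named snRNA genes. Both ends were more than 1 kb from any coding end for 18 of these 25 and for 11 of the 14 genes listed with RN7SL1. The U3 genes SNORD3B-2 and SNORD3D had 35 and 38 fragments in HD alone. Most of these are multicopy genes, so each peak's place within its family is uncertain.

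At the 116 peaks found in both lists, signal in HD was at the median slightly lower than in Ctrl, as over all shared peaks. Such peaks passed the caller's threshold in both lists, so large differences are less likely to appear among them. The 174 Ctrl and 66 HD peaks at noncoding ends that were not found again do not enter. Level here is the number of fragments divided by the list's genome mean, so a change shared by the whole genome would not show. The HD to Ctrl ratio of level had a median of 0.924 (lowest 0.581, highest 1.73) at the 116 peaks and 0.898 over all 1267 shared peaks. Level was lower in HD at 78 of the 116 (67.2%), against 71.9% of all shared peaks. The ratio of local enrichment, fragments over input expectation, had a median of 0.944 (lowest 0.390, highest 2.23), against 0.918 over all. Local enrichment was at least 1.5 times higher in HD at 5 of 116 (4.31%), against 4.34% of all shared peaks, and at least 1.5 times lower at 14 (12.1%), against 13.9%. Both shares were near those of all peaks. All 14 that were lower were lncRNA genes except TRP-TGG3-3 and MIR10396A. Only 2 of the 14, LOC124905136 and MIRLET7A1HG, were also lower by that factor in level, with level ratios of 0.581 and 0.637. At the 14, the HD to Ctrl ratio of input expectation was 1.51 to 3.68, against a median of 1.47 over all shared peaks. MALAT1, for example, had a level ratio of 0.989 and a local ratio of 0.602. The 5 that were higher were MIR3175 (2.23), DANCR (2.11), GASAL1 (1.85), NKILA (1.69) and LOC124903958 (1.54), and MIR3175 alone was also higher by that factor in level (1.73). None of the 38 pseudogene pairs passed 1.5-fold in either direction in local enrichment, and their ratios ran from 0.698 to 1.48. At the pairs of lowest enrichment a 1.5-fold fall could not have been seen. Local enrichment at RPL13P12 was 1.353 in Ctrl and 1.329 in HD, and at FTLP3 it was 1.464 and 1.615. A fall by that factor from these Ctrl values would lie below the input expectation, where no HD peak would be called. For such pairs the absence of a fall therefore does not show a stable signal. Summits of a pair lay a median of 45.5 bp apart. Without replicates none of these ratios has a replicate check.

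**Figure D5:**
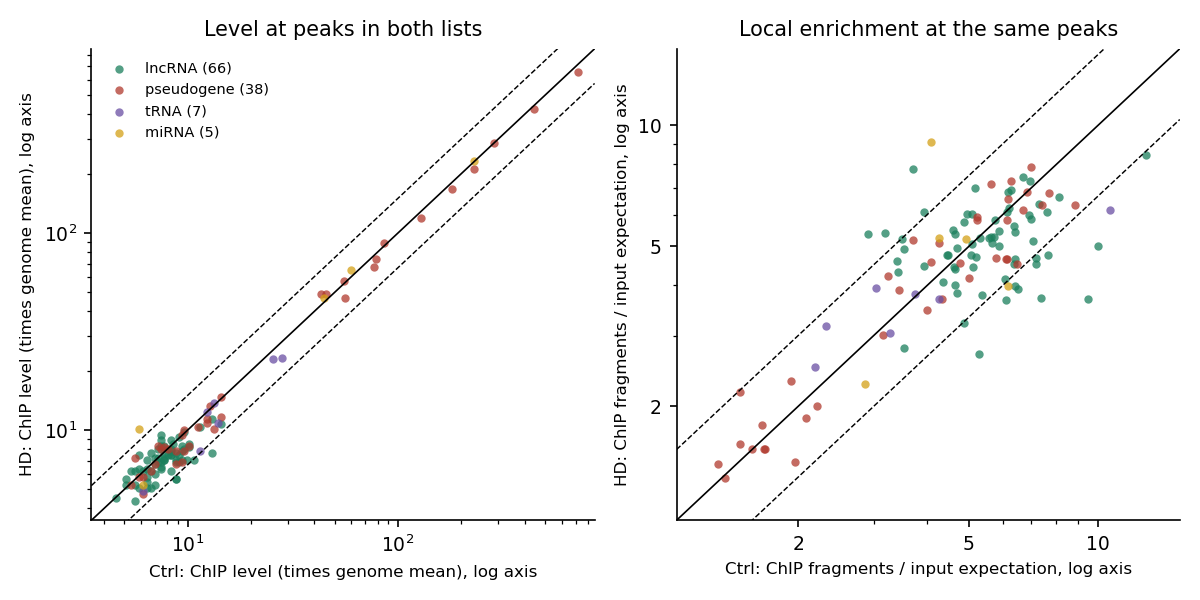
HD (vertical log axis) against Ctrl (horizontal log axis) at the 116 peaks in both lists, as the level in multiples of the genome mean (left) and as fragments over input expectation (right), coloured by gene type. The solid line marks equality and the dashed lines a 1.5-fold difference. In the right panel 5 peaks lie above the upper dashed line and 14 below the lower one.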

How the data were processed

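BG4 ChIP-seq of U2OS cells was analysed from 2 MACS2 peak lists, 1 for Ctrl and 1 for HD, each tied by the labels to a condition's pair of ChIP libraries. Per the labels' protocols, cells were fixed in 1% formaldehyde for 10 min and sonicated. The tools were MACS2 2.2.7.1, Bowtie2 2.5.0, FastQC 0.11.9 and SAMtools on hg38, per the submitters' processing notes, with settings not given in the sources used here. For each peak the authors deposited a fold enrichment (a ratio), −log10 p, −log10 q and a score, which was not used. Input files were not analysed here.

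In MACS2 the fold adds 1 to pileup and expectation, and p is the Poisson tail of a scaled pileup. Whole fragment numbers and the input expectation, divided by that scale, were recovered from both. They gave the deposited −log10 p to within 0.01 at 3506 of 3507 Ctrl and 2260 of 2269 HD peaks; more than 1 number matched for 3.31% and 4.19%, and the closest was taken. The step was tested on simulated data. The genome mean was 3.74 fragments per base in Ctrl and 5.51 in HD. Depth per library is unknown.

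Genes came from a RefSeq table of GRCh38.p14 (59792 genes, of which 794 on scaffolds or unplaced were left out). Peaks on other sequences (131 Ctrl, 97 HD) or in chr21:8200000-8470000 (41 and 37) were left out. The gene nearest to a summit names the peak. Members, gene lists and families were chosen with earlier results of these data known. Named genes were, per gene type, the peaks with the best summed rank of −log10 q in both lists (8 for lncRNA, 3 otherwise) and the highest −log10 q in 1 list alone (6 and 3), plus marked members of the gene lists; families, ratios past 1.5-fold and a few others were named after their values were seen. The p-values take peaks as units. Python 3.11.15, numpy 2.4.6, pandas 2.3.3, scipy 1.17.1 and statsmodels 0.14.6 were used. Alternatives varied the window, threshold, overlap, list length, input, gene types, covariates and motif.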

Additional observations from a re-analysis of the deposited data

How the results depend on the processing

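The number of Ctrl peaks moved to 180 with lists of equal length (2135 peaks each), to 188 with an input expectation of at most 2 times the genome mean, and to 169 with lncRNA genes alone, where the number of HD peaks was 103. With lists of equal length the shares found again were 50% for Ctrl and 49.4% for HD. Both shares count nearly the same overlaps, so equal numbers of peaks give near-equal shares by arithmetic. The gap between the full lists thus follows from their lengths. The motif share was 64.2% with loops of 1 to 12 bases and 15% on the gene's strand alone. The odds ratio of a coding against a noncoding end in HD turned from 1.13 to 0.955 at low input and to 0.933 with lncRNA genes alone; it passed no threshold in either, and the cause was not tested. The comparisons with the other locations, and their alternatives, were chosen after seeing the data. There the Ctrl odds ratio inside coding genes became 0.760 with equal length. The HD odds ratio elsewhere became 0.673 with equal length, 0.695 at a −log10 q of at least 3 and 0.638 at 5 kb from coding ends. In the other 72 values recomputed, direction and side of the threshold, or size within the margin used, were kept. Among these, the number of HD peaks still fell from 180 to 121 at low input. No paired analysis was possible because each condition has 1 peak list, although the labels number the libraries alike. With 1 list per condition, counting error alone could be given, and at 15 to 30 fragments a peak it is wide.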
